A study of Mus musculus with 9 samples.

Results

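The genes described here are 10 genes of blood-derived immune cells, the leukocytes. Most of them are expressed by nearly all leukocytes and not by most cells of skin, while Tyrobp belongs to myeloid and natural killer cells. The 10 are Ptprc, Cd52, Cd53, Cd48, Laptm5, Tyrobp, Lcp1, Coro1a, Cotl1 and Arhgdib, and they were followed as a measure of the leukocyte RNA in mouse ear skin. They are 10 of the 25124 genes listed, and all 10 passed the expression filter of at least 1 TPM in at least 4 libraries that left 15704 genes for testing. The set was chosen by known expression in leukocytes and, in part, by the TPM of this same comparison, in which Cotl1, Cd52 and Lcp1 were higher with the antibody, so the differences between groups for these 10 genes are given as a description with no test. The 9 libraries are whole-tissue RNA-seq of ear skin from C57BL/6 mice, taken on day 8 of association with Staphylococcus epidermidis strain LM087, a skin commensal that was swabbed onto the ears on alternate days. In 5 libraries the mice carried the bacterium alone. In the other 4 they also received anti-CTLA-4, an antibody against a receptor that restrains T cells. Every group carried the bacterium. The sources used here do not state the age or sex of the mice or the dose of the antibody. The labels number the replicates but do not say whether each is a separate mouse, so the spread between them, and every p-value below, may in part be technical. The comparison asks how skin colonised by this bacterium differs when the checkpoint receptor is blocked.

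Leukocytes are motile cells, and their shape, migration and contacts rest on a cortex of actin filaments that is rebuilt continuously under the control of small GTPases. Several actin regulators exist as a leukocyte form and as close relatives used by epithelial and mesenchymal cells, such as L-plastin (Lcp1) beside T-plastin (Pls3). Ptprc encodes CD45, the receptor tyrosine phosphatase that activates Src-family kinases in lymphocytes and defines leukocytes in flow cytometry. Skin holds resident macrophages, mast cells, Langerhans cells and T cells, and it recruits monocytes, neutrophils and further T cells in inflammation. In whole tissue, more leukocytes and more RNA per leukocyte cannot be told apart.

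Promoters of the genes are shown because the 10 genes varied together between libraries, as described below. RefSeq promoters of GRCm38.p6 whose start lies at the gene start in the deposited table were found for 7 of the 10. Cd52, Cotl1 and Tyrobp had no entry. Only the 4 with a match to either of the cores described next are printed. The promoters of Laptm5, Lcp1 and Coro1a held neither core and are left out. The 4 printed run from 250 bases before the start to 30 bases from it, 5′ to 3′ on the strand of the gene, with capitals marking AGGAAGT, a core read by ETS factors of the PU.1 type, and TGTGGT, a core read by RUNX factors, on either strand. The windows are chr1:138175276-138175555 (minus strand) for Ptprc, chr3:106790120-106790399 (minus) for Cd53, chr6:136939498-136939777 (minus) for Arhgdib and chr1:171681742-171682021 (plus) for Cd48.
Ptprc: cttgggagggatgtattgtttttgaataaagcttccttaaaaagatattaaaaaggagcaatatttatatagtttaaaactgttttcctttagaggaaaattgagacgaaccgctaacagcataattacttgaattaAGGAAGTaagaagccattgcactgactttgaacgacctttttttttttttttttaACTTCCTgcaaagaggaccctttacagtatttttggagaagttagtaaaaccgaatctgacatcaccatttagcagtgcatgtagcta
Cd53: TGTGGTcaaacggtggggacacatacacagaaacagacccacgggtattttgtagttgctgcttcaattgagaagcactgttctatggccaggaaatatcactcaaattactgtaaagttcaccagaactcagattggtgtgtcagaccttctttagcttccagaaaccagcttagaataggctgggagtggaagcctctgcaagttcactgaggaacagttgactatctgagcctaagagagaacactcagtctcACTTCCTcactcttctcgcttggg
Arhgdib: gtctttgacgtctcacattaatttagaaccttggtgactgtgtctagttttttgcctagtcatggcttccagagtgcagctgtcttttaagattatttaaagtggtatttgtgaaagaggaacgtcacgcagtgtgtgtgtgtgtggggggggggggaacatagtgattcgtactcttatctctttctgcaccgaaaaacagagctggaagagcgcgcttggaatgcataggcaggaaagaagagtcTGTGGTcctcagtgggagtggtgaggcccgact
Cd48: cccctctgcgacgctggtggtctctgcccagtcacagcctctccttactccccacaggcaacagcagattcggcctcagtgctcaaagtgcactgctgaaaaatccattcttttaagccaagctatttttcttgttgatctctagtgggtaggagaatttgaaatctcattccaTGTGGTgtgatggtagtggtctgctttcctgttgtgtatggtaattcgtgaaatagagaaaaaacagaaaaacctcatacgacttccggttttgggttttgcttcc

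Among the 7 promoters, AGGAAGT was found in 2, those of Ptprc and Cd53, against 8.65% of the 32851 promoters of the same length in the RefSeq table. The Ptprc window held it at position -113 and, on the opposite strand, at position -58, and the Cd53 window held it on the opposite strand at position 7, counting the first transcribed base as 1. TGTGGT was found in 3 of 7 (Cd53 at -250, Arhgdib at -3 and Cd48 at -76), against 15.6% of all promoters. The TATA letters TATAAA were found in 2 of 7 (Ptprc at -187 on the opposite strand and Laptm5 at -218), against 13.1%. The GC box letters GGGCGG, present in 34.7% of all promoters, were in 0 of the 7. Both strands were searched for each of these 4 motifs, and none of the matches overlapped another. These are matches of letters in a short window and not measured binding sites.

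The values are TPM, a measure of transcript abundance scaled to the library total and divided by gene length. In this table the length is the whole span of the gene, introns included, for 99.2% of rows. Levels of different genes are therefore ordered below after rescaling to exon length, while the choice of length does not affect the same gene compared between libraries. Composition can still shift such comparisons. Ribosomal RNA entries made up from 30.6% (replicate 3 with anti-CTLA-4) to 40.2% (replicate 1 with anti-CTLA-4) of the listed TPM. The smallest steps between TPM values gave the reads behind them, and the libraries held between 10213818 and 13868823 reads on listed genes. The 10 genes were read deeply enough for single libraries to be informative. On the mean of each group, Tyrobp had the fewest reads, between 91 and 177 per library with the bacterium alone and between 247 and 359 with anti-CTLA-4. Ptprc had the most, between 1366 and 1993 and between 3064 and 4829.

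Every one of the 10 genes was higher in each anti-CTLA-4 library than in each library with the bacterium alone. Over all tested genes, 8.02% (1259 of 15704) separated the groups completely in this direction, and 7.16% (1124 genes) were called higher and 4.48% (704) lower by limma at a Benjamini-Hochberg adjusted p under 0.05. The 10 genes all fell among those called higher, which the choice of the genes used and from which nothing is read here. Their log2 differences lay between 0.71 and 1.41 with a median of 1.04, and the median of all tested genes was -0.01 with a 5th to 95th percentile range of -0.41 to 0.61.

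**Figure D1:**
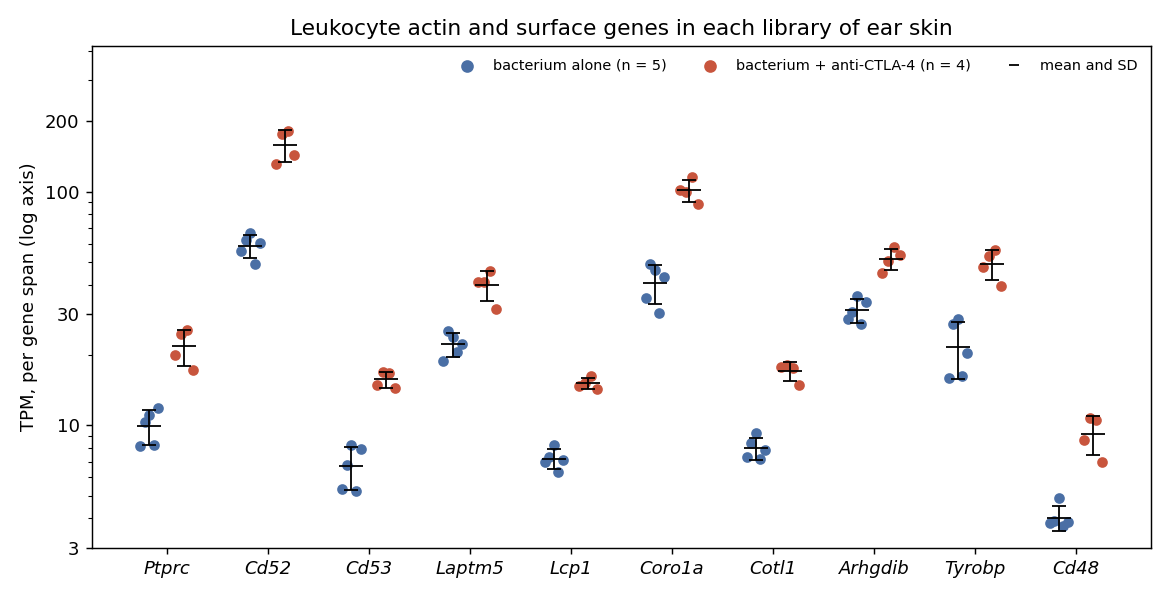
TPM of the 10 genes (log axis) in each of the 5 libraries with the bacterium alone and the 4 with anti-CTLA-4; each point is a library, and the bars give the mean and SD. The 2 sets of points do not overlap for any gene, with the closest approach for Laptm5 (25.4 against 31.6 TPM).

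Among the surface proteins, Ptprc lies at chr1:138062859-138175305 on the minus strand of mm10. Its level was 8.18, 10.3, 11.1, 8.25 and 11.9 TPM in replicates 1 to 5 with the bacterium alone and 20.0, 24.6, 25.5 and 17.3 TPM in replicates 1 to 4 with anti-CTLA-4. Replicates 1 and 4 were the lowest of the first group and replicate 4 was the lowest of the second, at 1.46 times the highest value with the bacterium alone. The means were 9.93 ± 1.66 TPM (SD, n = 5) and 21.8 ± 3.86 TPM (SD, n = 4), a log2 difference of 1.06 (SE 0.14) on the log2(TPM + 1) scale used for all differences below. That scale understates the change of genes with low TPM.

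Cd52 encodes a small glycosylphosphatidylinositol-anchored glycoprotein that coats lymphocytes and other leukocytes (chr4:134093538-134095073, minus strand). It measured 55.6, 62.0, 66.4, 49.1 and 60.2 TPM with the bacterium alone and 132, 177, 182 and 143 TPM with anti-CTLA-4. This was the widest separation of the 10 genes: the lowest anti-CTLA-4 library stood at 1.98 times the highest library of the other group. The log2 difference was 1.41 (SE 0.12), from 58.7 ± 6.60 to 158 ± 24.8 TPM (SD, n = 5 and n = 4).

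Cd53 encodes a leukocyte tetraspanin, a membrane organiser with 4 transmembrane segments (chr3:106758861-106790149, minus strand). Its values were 5.33, 6.76, 8.26, 5.25 and 7.94 TPM with the bacterium alone and 14.8, 16.9, 16.7 and 14.5 TPM with anti-CTLA-4. The first group spread over 1.57-fold and the second over only 1.16-fold. The means were 6.71 ± 1.41 and 15.7 ± 1.24 TPM, a log2 difference of 1.14 (SE 0.13).

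Cd48 encodes a ligand of the SLAM family that binds CD2 and CD244 on lymphocytes (chr1:171681992-171705257, plus strand). It measured 3.81, 3.92, 4.89, 3.71 and 3.85 TPM with the bacterium alone and 8.63, 10.7, 10.6 and 6.99 TPM with anti-CTLA-4. Replicate 3 stood apart in the first group, whose other 4 libraries lay within 3.71 to 3.92 TPM. The log2 difference was 1.01 (SE 0.12), from 4.04 ± 0.485 to 9.23 ± 1.77 TPM.

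Laptm5 encodes a lysosomal membrane protein of haematopoietic cells that takes part in the degradation of antigen receptors (chr4:130913316-130936148, plus strand). The libraries with the bacterium alone had 18.9, 25.4, 23.9, 20.6 and 22.2 TPM, and those with anti-CTLA-4 had 41.0, 41.0, 45.7 and 31.6 TPM. Replicate 4 of the anti-CTLA-4 group was the nearest of any gene to the other group, at 1.24 times its highest library. Its log2 difference of 0.81 (SE 0.12) was the second smallest of the 10, with means of 22.2 ± 2.58 and 39.8 ± 5.91 TPM.

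Tyrobp encodes DAP12, the signalling adaptor that carries an activation motif for receptors of myeloid and natural killer cells (chr7:30413782-30417579, plus strand). It measured 15.96, 27.1, 28.7, 16.3 and 20.4 TPM with the bacterium alone and 47.8, 53.2, 56.1 and 39.3 TPM with anti-CTLA-4. It varied more among the libraries with the bacterium alone than any other of the 10, with a coefficient of variation of 27.4% where counting error alone gives 8.81%. The means were 21.7 ± 5.94 and 49.1 ± 7.37 TPM, a log2 difference of 1.17 (SE 0.19).

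Among the actin genes, Lcp1 encodes L-plastin, which bundles actin filaments in leukocytes (chr14:75136425-75230842, plus strand). Its levels of 6.97, 7.36, 8.28, 6.29 and 7.12 TPM with the bacterium alone and 14.7, 15.1, 16.3 and 14.4 TPM with anti-CTLA-4 had the smallest SE of the 10 genes. The means were 7.205 ± 0.721 and 15.1 ± 0.852 TPM, a log2 difference of 0.98 (SE 0.076), and the coefficient of variation was 10.005% and 5.64% against counting errors of 3.08% and 2.10%. The listed span of the microRNA gene Mir466f-3, on the opposite strand, covers Lcp1 whole. The sources used here do not state whether the counting used strand, so reads of the pair cannot be told apart.

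Coro1a encodes coronin 1A, an actin-binding protein needed for the survival and migration of naive T cells (chr7:126699774-126704220, minus strand). It measured 35.0, 48.8, 46.4, 30.4 and 43.2 TPM with the bacterium alone and 102, 99.9, 115 and 88.2 TPM with anti-CTLA-4. Replicates 1 and 4 were again the lowest of the first group, and the lowest anti-CTLA-4 library was 1.81 times the highest of the other group. The means were 40.8 ± 7.80 and 101.3 ± 11.1 TPM, a log2 difference of 1.31 (SE 0.14), second only to Cd52 among the 10.

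Cotl1 encodes coactosin-like protein, which binds actin filaments and 5-lipoxygenase (chr8:119809214-119840579, minus strand). Its values were 7.29, 8.39, 9.29, 7.17 and 7.85 TPM with the bacterium alone and 17.8, 18.1, 17.6 and 14.8 TPM with anti-CTLA-4. The first 3 anti-CTLA-4 libraries were nearly equal and replicate 4 lay below them. The log2 difference was 1.01 (SE 0.088), from 8.00 ± 0.869 to 17.1 ± 1.51 TPM.

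Arhgdib encodes the haematopoietic GDP-dissociation inhibitor, which holds small GTPases in the cytosol (chr6:136923661-136939527, minus strand). It measured 28.4, 30.5, 35.8, 27.2 and 33.9 TPM with the bacterium alone and 45.0, 50.5, 57.8 and 53.3 TPM with anti-CTLA-4. It had the smallest difference of the 10, with a log2 difference of 0.71 (SE 0.099), from 31.1 ± 3.64 to 51.7 ± 5.36 TPM. Its ratio of means was 1.66, against 2.70 for Cd52 at the other end.

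Rescaled to exon length in GENCODE M21, the levels of the 10 genes could be ordered. Arhgdib was the highest in both groups, at an RPKM (reads scaled to exon length and to library depth) of 46.3 ± 6.60 with the bacterium alone and 78.5 ± 5.85 with anti-CTLA-4, and it did not overlap the next gene in either. With the bacterium alone the order then ran Ptprc (27.6), Laptm5 (24.6), Cd52 (22.1), Lcp1 (20.4), Cotl1 (19.8), Tyrobp (18.4), Cd53 (15.2), Coro1a (11.98) and Cd48 (9.96), and each of these neighbours overlapped the next. With anti-CTLA-4 Cd52 stood beside Ptprc (60.9 ± 8.01 and 61.8 ± 9.57), and every library of Cd52 was above every library of Laptm5 (45.1 ± 5.92). Lcp1, Cotl1 and Tyrobp lay at 43.8, 43.3 and 42.6 and overlapped one another, Cd53 (36.5) did not overlap Coro1a (30.4) below it, and Cd48 was again lowest (23.3). The span of Cd52 is only 2.99 times its exon length, where that of Ptprc is 21.97 times. The sources used here do not state whether reads were counted in exons or over the whole gene.

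The 10 genes moved up and down together among libraries of the same group. Replicate 3 with the bacterium alone was the highest of its group for 7 genes and replicate 4 the lowest for 7, while in the anti-CTLA-4 group replicate 3 was the highest for 7 and replicate 4 the lowest for 8. Summed over the 10, the level ran from 174 to 243 TPM with the bacterium alone and from 423 to 543 TPM with anti-CTLA-4. After the mean of each group was subtracted, the 45 pairs of genes had Pearson correlations between 0.33 and 0.92 over the 9 libraries, with a median of 0.77. Each gene was also set against the mean of the other 9, which gave the highest correlation for Tyrobp (0.92) and the lowest for Arhgdib (0.67). The points are libraries that share depth and composition, so these correlations describe the 9 libraries only.

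Of 10206 named genes with a mean of at least 5 TPM, those whose pattern within groups was most like the mean of the 10 were Dok3 (r = 0.97), Clec4a2 (0.96), Tnfrsf1b (0.96), Fxyd5 (0.96), Fmnl1 (0.95), Was (0.95), Rac2 (0.95), Mpeg1 (0.95), Rp2 (0.95) and Ctsc (0.94), over 9 libraries centred on their group means. Dok3 is an adaptor of myeloid and B cells, Was encodes the Wiskott-Aldrich syndrome protein that starts actin branching, Rac2 is the haematopoietic Rac GTPase, Fmnl1 a leukocyte formin and Mpeg1 the macrophage perforin.

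Set against Ptprc in the same library, the other 9 genes kept overlapping proportions between groups. Lcp1 had 61.8 ± 7.66 reads per 100 Ptprc reads with the bacterium alone and 59.2 ± 8.24 with anti-CTLA-4, Cotl1 had 22.7 ± 2.52 and 22.1 ± 2.68, and Tyrobp had 7.34 ± 1.39 and 7.62 ± 0.332. The mean was lower with anti-CTLA-4 for Arhgdib (44.6 ± 3.55 and 34.1 ± 6.46) and Laptm5 (45.9 ± 5.21 and 37.2 ± 3.19) and higher for Cd52 (8.15 ± 0.831 and 9.95 ± 0.962) and Coro1a (16.2 ± 1.82 and 18.6 ± 1.98). These shifts were not tested, and the 2 groups overlapped for each of the 9 genes.

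**Figure D2:**
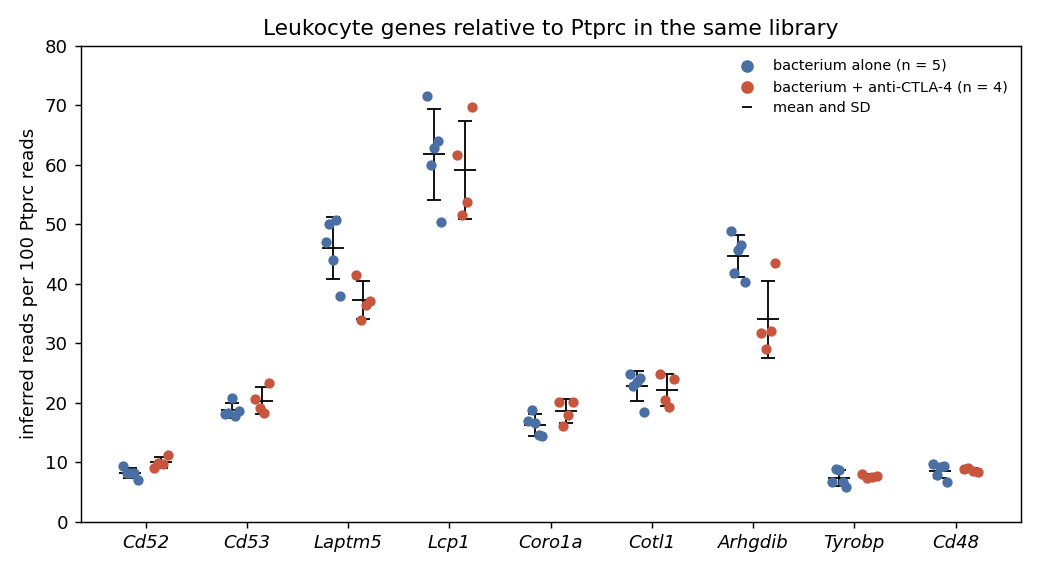
Inferred reads of 9 genes per 100 reads of Ptprc in the same library, with the mean and SD of each group. Arhgdib (44.6 against 34.1) and Laptm5 (45.9 against 37.2) have the lowest means with anti-CTLA-4 relative to the bacterium alone, and the groups overlap for every gene.

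Relatives of the 10 genes were set beside them. Of 33, 32 were tested, and 8 of these belong to the CD2 and SLAM family, which leukocytes also express (5 called higher and 3 not called, 2 of the 5 averaging under 1 TPM with the bacterium alone). The other 24, most of them used by other or more cell types, were called higher for 4, lower for 3 and not called for 17, with a median log2 difference of 0.02. Pls3, the T-plastin of epithelial and mesenchymal cells, measured 22.1, 23.5, 24.98, 23.5 and 22.8 TPM with the bacterium alone and 18.1, 18.6, 21.1 and 20.4 TPM with anti-CTLA-4. Pls3 fell by 0.25 on the log2 scale (limma adjusted p = 0.0339), a call that held in 2 of 9 fits that each left out a library. The 9 libraries gave 52.0, 51.6, 54.6, 44.0 and 51.4 Lcp1 reads per 100 Pls3 reads with the bacterium alone and 133, 134, 127 and 116 with anti-CTLA-4. Lcp1 thus had fewer reads than Pls3 in every library with the bacterium alone and more in every library with anti-CTLA-4.

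Among the coronins, Coro1b, which works at the leading edge of many cell types, rose from 76.5 ± 2.08 to 97.3 ± 5.18 TPM (log2 difference 0.34, limma adjusted p = 0.0053). Coro1c, another widely expressed coronin, was at 23.3 ± 1.01 and 23.1 ± 1.18 TPM (log2 difference -0.008 ± 0.055 SE, limma adjusted p = 0.947), a difference whose sign turned when the ribosomal RNA entries were left out of the scaling (0.021). Coro1a reads per 100 Coro1c reads were 11.8 ± 2.30 with the bacterium alone and 29.3 ± 1.80 with anti-CTLA-4, without overlap. For the GDP-dissociation inhibitors the separation was incomplete: Arhgdia, the form found in nearly all cells, was at 247 ± 21.3 and 299 ± 25.6 TPM (log2 difference 0.28, limma adjusted p = 0.0693), and the ratio of Arhgdib to Arhgdia reads overlapped between groups (63.8 ± 7.47 and 87.5 ± 9.42 per 100). Twf2, a twinfilin that shares the actin-depolymerising-factor fold with Cotl1, rose from 6.59 ± 0.319 to 9.88 ± 0.630 TPM (log2 difference 0.52, limma adjusted p = 0.0023).

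Among relatives of the surface genes, the receptor phosphatase Ptprj rose from 11.4 ± 0.960 to 17.0 ± 0.701 TPM (log2 difference 0.54, limma adjusted p = 0.0029). Ptprf, a phosphatase of epithelial junctions, fell by 0.36 on the log2 scale (limma adjusted p = 0.0295, called in 3 of 9 fits that left out a library). The tetraspanin Cd63, found on lysosomes and secretory granules of many cells, rose by 0.53 (adjusted p = 0.0051), while Cd81 was at 46.6 ± 2.21 and 46.5 ± 3.07 TPM, with a sign that turned under the scaling without ribosomal RNA entries (log2 difference -0.002 and 0.028). Laptm4a was at 59.8 ± 3.21 and 63.8 ± 5.01 TPM (adjusted p = 0.448), and Laptm4b fell by 0.39 (adjusted p = 0.0164). In the CD2 and SLAM family, Cd2 rose from 2.28 ± 0.732 to 9.11 ± 1.38 TPM (log2 difference 1.64, adjusted p = 0.0022) and Ly9 from 3.66 ± 0.207 to 5.31 ± 0.592 TPM (0.43, adjusted p = 0.0081). Cd48 reads per 100 reads of its binding partner Cd2 were 370 ± 114 with the bacterium alone and 195 ± 15.7 with anti-CTLA-4, without overlap. Every anti-CTLA-4 library (173 to 208) lay below every library with the bacterium alone (219 to 529).

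**Figure D3:**
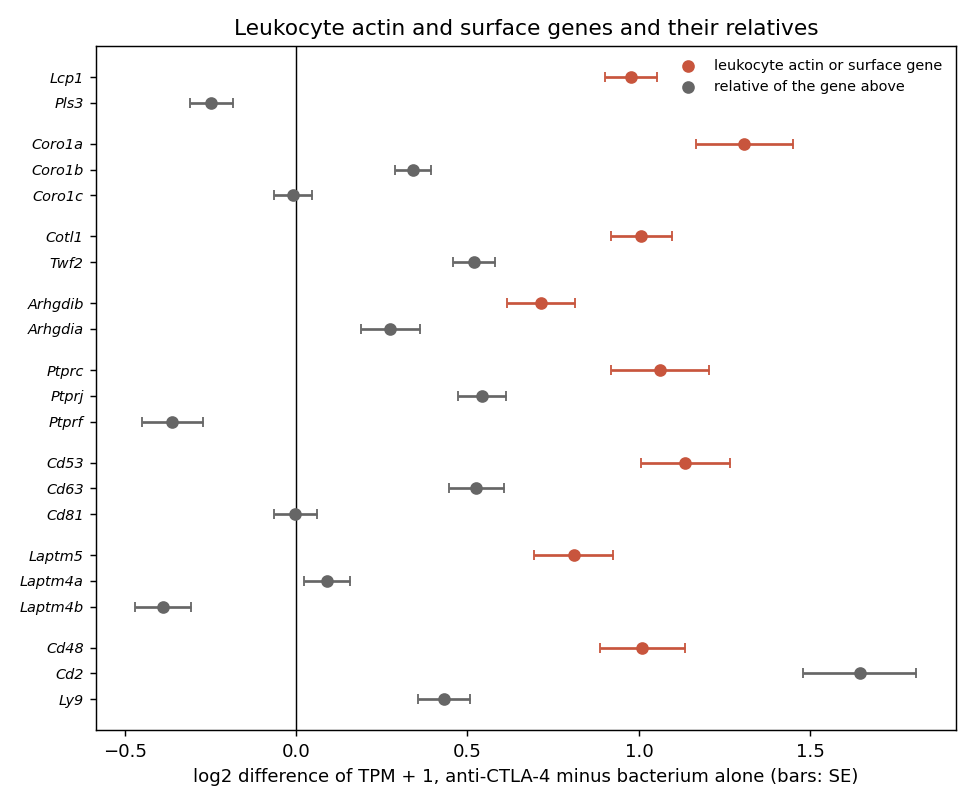
Log2 difference of TPM + 1, anti-CTLA-4 minus the bacterium alone, for 8 of the genes (red) and fixed relatives of each (grey); bars are the SE of the limma fit. The leukocyte genes lie between 0.71 and 1.31, and Cd2 (1.64) is the relative that lies above its partner.

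Other leukocyte regulators of actin and its GTPases, from a list of 36 genes that were all tested, were called higher for 31, lower for 0 and not called for 5, with a median log2 difference of 0.85. The 4 with the smallest p were Hcls1, the leukocyte cortactin (5.18 ± 0.878 to 12.4 ± 0.998 TPM, log2 difference 1.13, limma adjusted p = 0.0021), Rac2 (5.25 ± 1.00 to 16.2 ± 2.85 TPM, 1.46), the Rac exchange factor Vav1 (3.81 ± 0.629 to 8.81 ± 0.891 TPM, 1.03) and the integrin activator Fermt3 (7.94 ± 1.05 to 15.6 ± 1.20 TPM, 0.90). The 5 that were not called, named after their values were seen, were Arhgef6 (log2 difference 0.40, adjusted p = 0.0880), Lsp1 (0.28, adjusted p = 0.133), Stk10 (0.19, adjusted p = 0.317), Dock8 (0.12, adjusted p = 0.461) and Dock11 (0.10, adjusted p = 0.497). Lsp1, an actin-binding phosphoprotein of leukocytes, was at 27.9 ± 3.21 and 34.1 ± 4.38 TPM. Of 36 leukocyte surface and signalling genes, 35 were called higher and 1 was not, with a median of 0.87. The exception was Rasgrp2, an exchange factor that leads to integrin activation in platelets and lymphocytes (2.49 ± 0.753 and 3.80 ± 1.42 TPM, limma adjusted p = 0.265). Rasgrp2 had only 5 to 17 inferred reads per library, so its missing call is limited by depth. Itgal, the alpha chain of LFA-1, rose from 2.95 ± 0.487 to 8.28 ± 1.31 TPM (1.23), Selplg, the ligand of P-selectin, from 11.01 ± 1.64 to 24.99 ± 3.80 TPM (1.11), Apbb1ip, the Rap1 effector RIAM, from 5.24 ± 0.472 to 11.3 ± 1.60 TPM (0.98) and Lst1 from 3.10 ± 0.534 to 10.1 ± 2.09 TPM (1.42). Within groups, the mean of the actin list correlated with that of the 10 genes at 0.96 and the mean of the surface list at 0.97 over the 9 libraries.

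Actin genes used by nearly all cells were followed as a counterpart. Of 30, all tested, 18 were called higher, 0 lower and 12 were not called, with a median log2 difference of 0.27 and a range of -0.11 to 0.99. The count was 11 without replicate 1 of the bacterium alone, and 11 without replicate 3 or replicate 4 with anti-CTLA-4, and 0 with either covariate described below. Tmsb10 and Tmsb4x, thymosins that bind actin monomers, rose from 140 ± 27.6 to 276 ± 18.5 TPM (0.99, limma adjusted p = 0.0035) and from 565 ± 56.5 to 900 ± 74.4 TPM (0.67, adjusted p = 0.0037). Cofilin (Cfl1) rose from 319 ± 41.7 to 502 ± 38.6 TPM (0.66) and moesin (Msn) from 19.8 ± 2.22 to 30.3 ± 2.11 TPM (0.60). Of the cytoplasmic actins, named outside the rule for genes, Actb rose by 0.54 (2650 ± 226 to 3852 ± 298 TPM, adjusted p = 0.0097) and Actg1 was at 132 ± 11.3 and 143 ± 22.9 TPM (0.11, adjusted p = 0.589). The mean of this list followed that of the 10 genes within groups at r = 0.55, below the leukocyte actin and leukocyte surface lists (0.96 and 0.97).

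**Figure D4:**
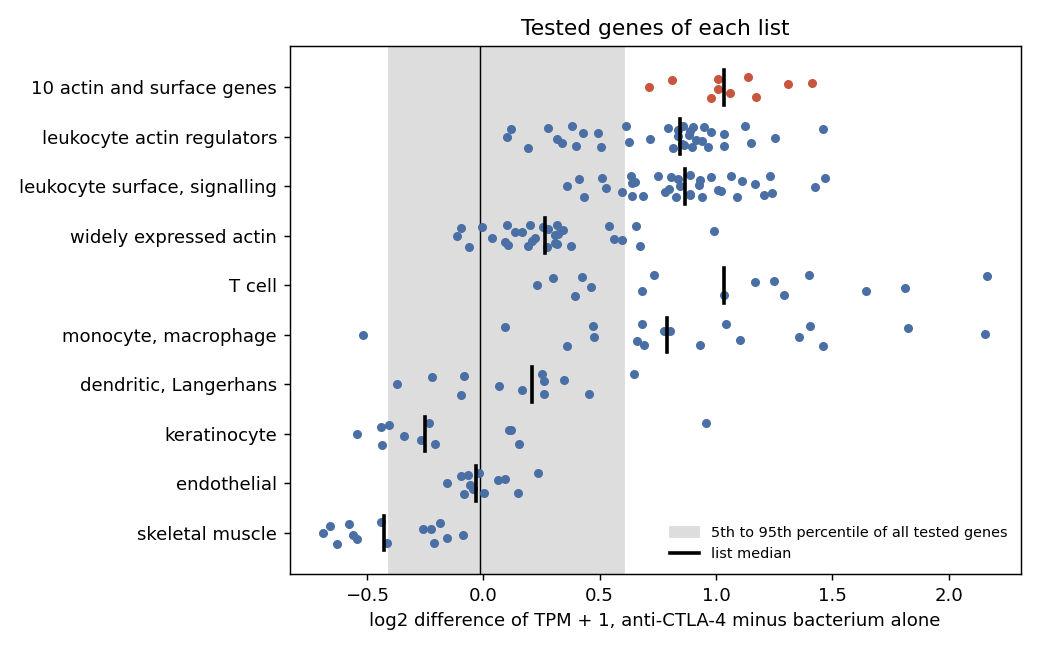
Log2 difference of TPM + 1, anti-CTLA-4 minus the bacterium alone, for each tested gene of 10 lists; thick lines are list medians, the thin line is the median of all tested genes (-0.01) and the grey band is the 5th to 95th percentile of all 15704 tested genes (-0.41 to 0.61). The leukocyte actin and surface lists have medians of 0.85 and 0.87, the widely expressed actin genes 0.27 and skeletal muscle genes -0.42.

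A list of 15 receptor genes was drawn up as possible partners of the adaptor encoded by Tyrobp. Of these, 10 were tested, 7 were called higher and 3 were not, with a median of 0.94. Pairing with that adaptor was not examined here and may not hold for every listed gene, Cd300ld included. Cd300ld, a myeloid receptor, rose from 5.28 ± 1.42 to 14.9 ± 2.87 TPM (log2 difference 1.35, limma adjusted p = 0.0037), and Sirpb1c from 1.54 ± 0.650 to 6.41 ± 1.58 TPM (1.56, adjusted p = 0.0037). Sirpb1b also rose (1.32), but the Sirpb1 genes are nearly identical copies and the division of reads among them is uncertain. Of the 7 genes called higher, 2 averaged under 1 TPM with the bacterium alone and passed the filter through the group where they were high, and the other tested genes were called higher for 5 of 7. Klrk1, which encodes the NKG2D receptor of natural killer and T cells, rose from 6.44 ± 1.63 to 12.6 ± 2.18 TPM (0.89, adjusted p = 0.0128). Trem2, a receptor of macrophages, was at 3.71 ± 0.899 and 5.46 ± 1.36 TPM (0.45, adjusted p = 0.135).

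Markers of single leukocyte types give the setting for the 10 genes. T cell markers were called higher for 12 of 15 tested (median 1.03; 1 of the 12 is Thy1, which fibroblasts also express, and 2 averaged under 1 TPM with the bacterium alone), among them the kinase Lck (2.77 ± 0.587 to 8.95 ± 1.60 TPM, log2 difference 1.40). Monocyte and macrophage markers were called higher for 13 of 18 (median 0.79), with the integrin Itgam from 3.53 ± 0.673 to 10.6 ± 1.53 TPM (1.36) and the mannose receptor Mrc1 from 14.7 ± 1.65 to 31.6 ± 5.54 TPM (1.04). Of the 8 tested neutrophil markers among 15 listed, 5 were called higher (2 of them under 1 TPM with the bacterium alone), including Csf3r (2.93 ± 1.43 to 9.12 ± 1.68 TPM, 1.43). Cytotoxic and natural killer markers were tested for 6 of 9 and called higher for 4 (2 of them under 1 TPM with the bacterium alone), including Nkg7 (10.4 ± 2.16 to 29.0 ± 5.70 TPM, 1.40). Mast cell markers were called higher for 4 of 8, and dendritic and Langerhans cell markers for 2 of 12 (median 0.21), with Irf8 from 8.10 ± 1.17 to 13.3 ± 2.36 TPM (0.65, limma adjusted p = 0.0148). The other was Batf3, a call that held in 2 of 9 fits that each left out a library. The log2 difference was positive for 8 of the 12 dendritic and Langerhans cell markers. Among those with a negative difference, Epcam was at -0.22 (limma adjusted p = 0.0553). Cd207, named outside the rule for genes, was at -0.37 (limma adjusted p = 0.188). Of 8 B and plasma cell markers only Cd79b passed the filter, through the anti-CTLA-4 libraries alone (0.799 ± 0.168 and 1.93 ± 0.425 TPM), so nothing is read from its call. The summed level of those 8 was 2.78 to 4.07 TPM with the bacterium alone and 4.79 to 5.77 TPM with anti-CTLA-4. In within-group variation, the mean of the 10 genes correlated at 0.90 with the T cell list, 0.87 with the monocyte and macrophage list, 0.71 with the neutrophil list, 0.39 with the dendritic list and 0.06 with the mast cell list. No marker in any of these lists was at 0 in all 9 libraries.

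Markers of the other cells of the ear are read beside the 11.6% of all tested genes that were called in either direction. Endothelial markers were called for 0 of 12 (median -0.03), fibroblast markers higher for 1 of 12 (Thy1, which T cells also express), and keratinocyte markers higher for 1 (Krt1) and lower for 2 (Perp and Dsp) of 12 (median -0.25). The Krt1 call held in 5 and the Dsp call in 1 of 9 fits that each left out a library. The keratinocyte sum was 25666 to 32175 TPM with the bacterium alone and 22315 to 26179 TPM with anti-CTLA-4. Skeletal muscle markers were all negative, with 2 of 14 called lower (Actn3 and Pvalb, calls that held in 5 and 3 of those 9 fits), a median of -0.42 and overlapping sums of 1649 to 2645 and 1373 to 1968 TPM. Hair follicle markers were tested for 8 of 16 and called lower for 4, and their sums of 41.4 to 63.9 and 27.2 to 37.0 TPM did not overlap. Medians were also negative for sebaceous and adipocyte (-0.22, 1 of 12 called lower), cartilage (-0.20), melanocyte (-0.20) and nerve markers (-0.19). Of those last 3 lists, 0 genes were called. Medians were positive for fibroblast (0.05) and for red cell and platelet markers (0.50, 2 of 6 called higher). The 2 were Itga2b (0.46) and Pf4 (0.87), and none of the tested red cell genes was called. Ppbp and Hbb-bt, also not called, had at most 4 and 13 inferred reads in any library.

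Hair follicle sums thus separated the groups, while skeletal muscle sums overlapped although every marker of that list had a negative difference. The part of either list in the differences of the 10 genes was not tested beyond adding each of these list means to the model. The means of the other lists were not added. With the hair follicle mean as a covariate the 10 genes had a median log2 difference of 1.12, and 7 of them and 14 of the 36 leukocyte actin genes were called. With the skeletal muscle mean the median of the 10 was 1.00, close to the 1.04 without it, while the median SE grew from 0.121 to 0.184. No gene of the 10 and none of the leukocyte actin, leukocyte surface or widely expressed actin lists then passed limma's adjusted threshold (0 higher and 1 lower of all genes, with 2326 of all 15704 genes at an unadjusted p under 0.05).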

How the data were processed

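Whole ear skin RNA-seq was analysed from 1 table of TPM deposited by the authors for 9 libraries and 25124 genes. The submitters' processing notes name STAR, HOMER, DESeq2 and the build mm10. The versions, annotation and counting mode were not given in the sources used here. In the deposited TPM, each value times the listed gene length was a whole multiple of 1 step per library (100% of about 2000 low values per library within 0.02 reads beyond rounding, for genes up to 12000 bp), and read numbers were inferred from that step. Inferred totals were 10213818 to 13868823 reads, and TPM computed on gene spans includes introns. The group of each library was taken from its title.

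The main model was limma 3.58.1 (R 4.3.3) on log2(TPM + 1), with empirical Bayes, a mean-variance trend and no covariate. It was two-sided, with Benjamini-Hochberg adjustment over 15704 genes that reached 1 TPM in 4 or more libraries and a threshold of 0.05, and was tested on simulated data. The 10 genes and the gene lists were chosen with earlier results of these data known. Named genes were the 10, up to 4 genes with the smallest p of each list, any listed relative or partner, and the 10 genes most like the mean of the 10 within groups. Alternatives were other pseudocounts, filters, scalings and variance settings, covariates, a replicate block, leaving out each library, and, added after the data were seen, limma-voom on the inferred reads. The libraries of a group differed from one another by more than sampling noise, so none was counted as a copy. Exon lengths were the union of GENCODE M21 basic exons.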

Additional observations from a re-analysis of the deposited data

Results flagged for a closer look

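Values were checked for a library far from the others in 130 groups (the 10 genes and 55 named genes in both groups), and chance marks about 1 in 20 groups. Cotl1 in replicate 4 with anti-CTLA-4 was at 14.8 TPM, where the other 3 libraries lay between 17.6 and 18.1 TPM. Cd48 in replicate 3 with the bacterium alone was at 4.89 TPM, where the other 4 lay between 3.71 and 3.92 TPM. Mrc1, a macrophage receptor, was at 17.5 TPM in the same replicate 3, where the other 4 lay between 13.5 and 14.6 TPM.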

How the results depend on the processing

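The differences of the 10 genes ranged from 0.53 (Arhgdib) to 1.57 (Coro1a) over 22 alternatives, and the number of them called was 7 with the hair follicle covariate (not Arhgdib, Tyrobp and Cd48), 0 with the skeletal muscle covariate and 10 in the others. As the genes were chosen partly on this comparison, nothing is read from these counts. The median of the 10 was 0.80 with a pseudocount of 5, which compresses low values by construction. Genes called higher numbered 592 with the replicate block, 146 with the hair follicle covariate, 0 with the skeletal muscle covariate, 1844 with limma-voom on inferred reads and 706 (without replicate 3 with anti-CTLA-4) to 1094 when each library was left out in turn. Rescaling without the ribosomal RNA entries gave 1388 genes called higher and 716 called lower. Genes called lower numbered 1429 after quantile normalization, 1306 after rescaling without the 50 most abundant genes, 88 with the replicate block, 4 with the hair follicle covariate, 1 with the skeletal muscle covariate, 1137 with limma-voom and 337 to 703 when each library was left out. The share of calls that were higher was 61.5%, 47.9% after quantile normalization and 48.0% without the 50 most abundant genes. Leukocyte actin genes called higher numbered 14 with the hair follicle covariate and 0 with the skeletal muscle covariate, and widely expressed actin genes 4 with the replicate block, 0 with either covariate and 11 to 17 when each library was left out. The lowest count of 11 came without replicate 1 of the bacterium alone and without replicate 3 or 4 with anti-CTLA-4. Replicate numbers did not pair the libraries (correlations of deviations between -0.093 and 0.018), so the block uses shared numbers only, on 8 libraries. Coro1c turned positive with rescaling without ribosomal RNA entries (0.021), the skeletal muscle covariate (0.016) and limma-voom (0.028), and lay between -0.041 and 0.016 when each library was left out. Cd81 turned positive in the same 3 alternatives (0.028, 0.043 and 0.034) and lay between -0.032 and 0.042 when each library was left out. The cause of these changes was not tested. Reads of 91 to 177 for Tyrobp and 111 to 164 for Cd52 with the bacterium alone give counting errors of 8.81% and 8.46%, the limit of depth for single libraries.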
